A study of Mus musculus with 3 samples.

Results

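Iron enters a T cell through a receptor and a transporter, is stored in a protein shell, is watched over by a pair of RNA-binding sensors and leaves through a single exporter. The 10 genes followed here cover those steps: Tfrc, Slc11a2 and Steap3 for uptake, Fth1, Ftl1 and Ncoa4 for storage, Aco1 and Ireb2 for sensing, Slc40a1 for export and Hmox1 for the release of iron from haem. They were taken by function, matched through GENCODE M21 to the gene identifiers of the deposited tables, and found in all 3 libraries, so that they are 10 of 55536 measured genes. The data are RNA-seq of polyadenylated RNA from primary cells labelled activated regulatory T cell, of a male adult mouse aged 9 weeks, with whole organism given as the origin. The name of the strain, Foxp3GFP-DTRCD4CreERT2R26tdTomato, carries alleles at Foxp3, CD4 and R26. The labels describe technical replicates 1, 2 and 3 of biological replicate 1, and they do not say how the cells were activated or isolated. The 3 libraries form 1 group with no resting or untreated counterpart, so levels are described and only the libraries are compared with one another. Every SD here is over the 3 libraries (n = 3), and neither SDs nor p-values carry variation between animals or cultures, since the libraries are technical repeats.

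The libraries held between 18496690 and 21206219 estimated gene counts. All 6 regulatory T cell markers examined were present, from Foxp3 at 90.1 ± 6.76 TPM (a level scaled to transcript length and to the library) to Trac at 3180.3 ± 249.7 TPM. Markers of other cells were there too: the 13 macrophage markers, including those of iron-recycling macrophages, summed to 106, 69.2 and 112 TPM in replicates 1, 2 and 3. The 9 erythroid markers that could be matched summed to 915, 1279 and 1153 TPM, nearly all of it globin. The 5 B cell markers summed to 47.9, 49 and 52.8 TPM, and 4 reached 1 TPM in every library. Of the 5, 3 were highest in replicate 3, 1 in replicate 1 and 1 in replicate 2. In counts scaled to library size Ms4a1, highest in replicate 3, had 2.94, 3.07 and 6.49. Cd79b, highest in replicate 2, had 27.8, 29.8 and 27.9. In RNA of a mixed population, fewer cells of a type and less RNA per cell cannot be told apart.

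Cells take up iron bound to transferrin through the transferrin receptor, reduce it in the endosome and pump it into the cytosol. Surplus iron is packed into ferritin, a shell of heavy and light chains, and is set free again when ferritin is delivered to the lysosome. The iron regulatory proteins, encoded by Aco1 and Ireb2, bind a hairpin called the iron-responsive element when iron is scarce. Bound near the start of a message they hold back its translation, and bound in the tail of the Tfrc message they protect it from decay. Proliferating lymphocytes are known for their reliance on the transferrin receptor.

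The hairpins themselves could be read from the reference transcripts, and they are shown because they divide the members by the kind of control their messages can carry. The search asked, on the sense strand, for a C, any 5 bases, CAGTGN and 5 bases that pair with the first 5, G-U pairs allowed. Matches were found in 4 of the 10 members, Fth1, Ftl1, Slc40a1 and Tfrc, and in 0.628% of 141767 annotated transcripts, belonging to 448 genes. Another member, Slc11a2, matched only when 1 position of the stem could stay unpaired, a looser search that 5.16% of transcripts met. In the 29 bases printed for each element, from GENCODE M21 on mm10, capitals mark the bulged C and the loop of 6 bases.
Fth1 5′ UTR, chr19:9982732-9982760, + strand: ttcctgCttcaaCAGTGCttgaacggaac
Ftl1 5′ UTR, chr7:45459779-45459807, - strand: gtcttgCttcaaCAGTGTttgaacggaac
Slc40a1 5′ UTR, chr1:45925465-45925493, - strand: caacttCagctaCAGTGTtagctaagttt
Tfrc 3′ UTR, element 1, chr16:32631219-32631247, + strand: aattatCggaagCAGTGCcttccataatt
Tfrc 3′ UTR, element 2, chr16:32631598-32631626, + strand: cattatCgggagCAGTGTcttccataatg
Tfrc 3′ UTR, element 3, chr16:32631663-32631691, + strand: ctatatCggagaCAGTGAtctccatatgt
Tfrc 3′ UTR, element 4, chr16:32631710-32631738, + strand: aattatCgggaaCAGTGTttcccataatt
Slc11a2 3′ UTR, chr15:100395153-100395181, - strand: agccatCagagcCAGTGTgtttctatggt

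The placement followed the roles. The storage chains and the exporter had 1 element each in the 5′ UTR, with the bulged C at base 93 of Fth1-201, 84 of Ftl1-201 and 96 of Slc40a1-201. The receptor Tfrc had 4 matches in the 3′ UTR. The first bulged C was at base 3321 of Tfrc-201, and the next ones lay 379, 65 and 47 bases further on in turn. Because the search asked for the loop CAGTGN, an element with another loop would be missed, so 4 counts matches only. Neither sensor, nor Hmox1, Ncoa4 or Steap3, held a match, which says only that these letters are not in their annotated transcripts. A match is a description of sequence and was not shown here to be bound.

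The ferritin chains stood far above every other member. Ftl1, the light chain, averaged 1876 ± 69.5 TPM, and Fth1, the heavy chain that oxidises iron as it enters the shell, 1692 ± 156 TPM. They held places 41 and 44 among 22028 protein-coding genes. Ncoa4, the receptor that carries ferritin to the lysosome, followed at 92.5 ± 10.3 TPM. Next came Slc11a2 at 35.8 ± 4.79, Tfrc at 32.2 ± 3.10, Aco1 at 30.9 ± 1.51 and Ireb2 at 21.9 ± 0.667 TPM. Hmox1 averaged 17.8 ± 3.58 TPM and Slc40a1 13.0 ± 5.08 TPM. Steap3 was last at 0.277 ± 0.0902 TPM. In this order the ranges over libraries overlapped between Ftl1 and Fth1, Slc11a2 and Tfrc, Tfrc and Aco1, and Hmox1 and Slc40a1, and no other neighbours overlapped. The members other than Steap3, 9 of 10, reached 1 TPM in every library, as did 47.3% of protein-coding genes.

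**Figure D1:**
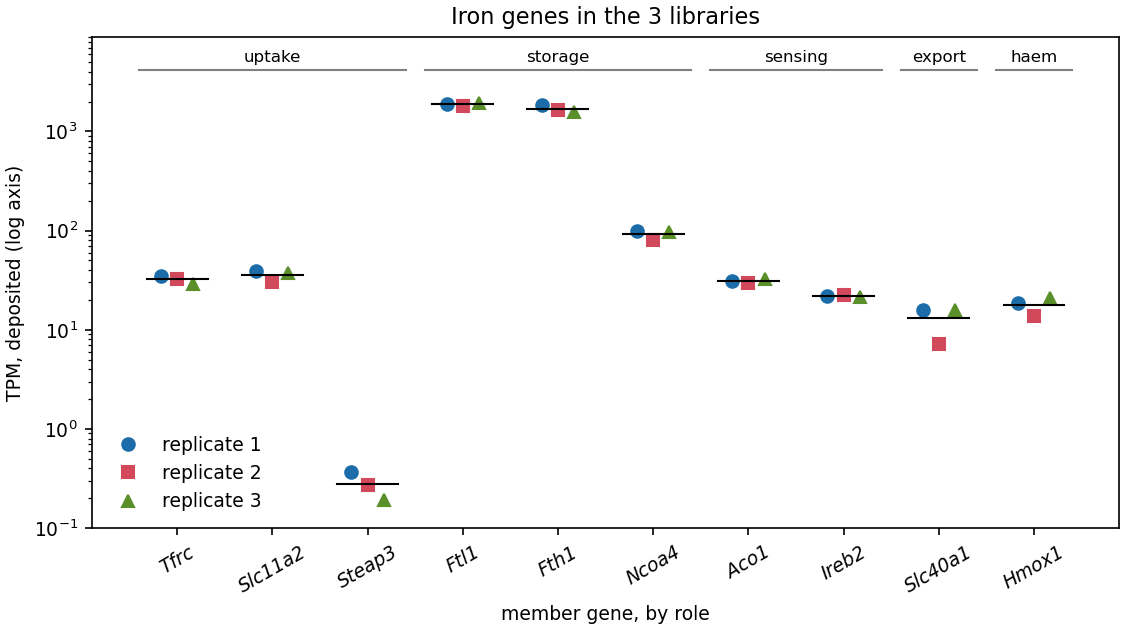
Deposited TPM (log axis) of the 10 members in replicate 1 (circles), replicate 2 (squares) and replicate 3 (triangles), grouped by role, with a black line at the mean. Ftl1 and Fth1 lie at 1556 TPM or more in every library, the 7 members from Ncoa4 down to Slc40a1 between 7.16 and 99.7 TPM, and Steap3 below 0.4 TPM.

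Each member was also compared between libraries, by a Pearson chi-square test on estimated counts against library totals. P-values were adjusted by Benjamini-Hochberg over the 14641 genes whose counts summed to at least 30. By this test 7 of the 9 members tested differed by more than counting noise, against a background of 44.9% of all genes tested and of 66.5% of genes averaging at least 1000 counts. Of the 9, 5 differed and were lowest in replicate 2, as were 16.4% of all genes tested. The test sees small differences in abundant genes: Ftl1 differed at a ratio of 1.05 between its highest and lowest library. When the common spread between libraries estimated by edgeR, a coefficient of variation of 0.115, was added to counting noise, 0 members were called, and 2.78% of all genes. At an unadjusted p under 0.05 that setting left 1 member, Slc40a1. The values in CPM, counts scaled to library size, given below are on the scale of this test.

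Of the uptake genes, the receptor and the transporter were expressed at like levels and the reductase was nearly absent. Tfrc, the transferrin receptor, had 34.9, 32.8 and 28.8 TPM in replicates 1, 2 and 3, resting on 1523, 1561 and 1215 estimated counts. Replicate 3 was its lowest library, and the highest-to-lowest ratio in CPM was 1.12 (adjusted p = 0.0123, chi-square test). Without replicate 3 the difference between the other 2 libraries had an adjusted p of 0.943. The gene (ENSMUSG00000022797.16) spans chr16:32608920-32632794 of mm10 on the + strand.

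Slc11a2, the proton-coupled metal transporter that moves iron out of the endosome, had 39.3, 30.3 and 37.7 TPM. Of these, 10.6, 1.44 and 3 TPM in replicates 1, 2 and 3 came from Slc11a2-204, a model of 393 bases. It had 48.1, 6.86 and 12.2 estimated counts, so a few reads on a short length weighed on the gene's TPM and its order between libraries. Replicate 2 was lowest by TPM and by CPM (57.6, 54.7 and 62.3 CPM), and the ratio of 1.14 passed the test (adjusted p = 0.02), but not without replicate 2 (adjusted p = 0.152) or without replicate 3 (adjusted p = 0.365). Its gene (ENSMUSG00000023030.16) lies at chr15:100387898-100425072, - strand. Gm5475, annotated across its upstream end, had 2.01 estimated counts in replicate 1 and none in the other libraries.

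Steap3 (ENSMUSG00000026389.16, chr1:120190757-120272705, - strand), the endosomal ferrireductase that works beside the receptor in developing red cells, had 8, 10 and 4 estimated counts, or 0.37, 0.27 and 0.19 TPM. With 22 counts in all it fell short of the minimum for the test. Set against Tfrc per length, Steap3 stood at 0.0106, 0.00823 and 0.0066 of the receptor's TPM. The other members of its family were lower still: Steap2 averaged 0.0333 TPM, Steap4 0.00667 TPM, and Steap1 had no count, which allows up to 0.144, 0.141 and 0.162 CPM in replicates 1, 2 and 3 (3 counts, counting error only).

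Storage was dominated by the ferritin chains, which made up 93.5, 94.1 and 93.2% of the members' summed TPM and 0.199, 0.188 and 0.185% of all gene counts. Fth1 (ENSMUSG00000024661.7, chr19:9980598-9985098, + strand) had 1862, 1657 and 1556 TPM in replicates 1, 2 and 3. Replicate 1 was its highest library and replicate 3 its lowest, with a CPM ratio of 1.15 (adjusted p = 1.20e-37). Ftl1 (ENSMUSG00000050708.16, chr7:45457944-45459884, - strand) had 1909, 1796 and 1922 TPM, lowest in replicate 2 (adjusted p = 3.36e-06). Light chain exceeded heavy chain in TPM in each of the 3 libraries, by 1.03, 1.08 and 1.24 times, a mean of 1.11 ± 0.109.

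The split of reads among ferritin copies bears on Ftl1 above all. Of the 50-base stretches of Ftl1-201, 90.6% also occur in transcripts of other genes, 17 in number. The copy with the most counts was Ftl1-ps1 on chromosome 13, which the annotation calls protein-coding and which shares 73.4% of those stretches. It had 525, 488 and 457 estimated counts, against 21489, 20868 and 18952 for Ftl1. Of the 14 ferritin copies and pseudogenes found by symbol, 4 had any count, the next being Ftl2-ps with 12.6, 2.82 and 3.13 and Fth-ps2 with 5, 4 and 3. The Fthl17 family on chromosome X had none. Gm15590, a processed pseudogene on chromosome 17 that the symbol does not show as ferritin, holds 34.6% of the stretches and had 27.5, 16.5 and 18.1. Fth1 shared only 6.59% of its stretches, with 1 pseudogene, so its value depends less on this division. With the copies found by symbol added to both chains the ratio of light to heavy was 1.14.

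Ncoa4 (ENSMUSG00000056234.15, chr14:32159865-32179855, + strand) had 99.7, 80.7 and 97.1 TPM, lowest in replicate 2, and its CPM of 174, 155 and 178 differed between libraries (ratio 1.15, adjusted p = 1.21e-07). A processed pseudogene on chromosome 12, Gm6768, holds 52.5% of its 50-base stretches and took 158, 321 and 137 estimated counts. The pseudogene was highest in the library where Ncoa4 was lowest. Summed, the pair had 182, 171 and 185 CPM, a smaller ratio, 1.09, than that of Ncoa4 alone. Ncoa4 stood at 0.0549 ± 0.00694 of the heavy chain's TPM.

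Neither sensor passed the test between libraries. Aco1, the cytosolic aconitase that becomes an RNA-binding protein when it loses its iron-sulphur cluster, had 30.9, 29.4 and 32.4 TPM. Replicate 2 was lowest, and the ratio of 1.11 in CPM had an adjusted p of 0.0505 by the chi-square test. The gene (ENSMUSG00000028405.9) lies at chr4:40143081-40198338, + strand. Over the alternatives tried that p ran on both sides of 0.05, with 0.0413 under TMM scaling and 0.041 with a minimum mean count of 100. Ireb2 (ENSMUSG00000032293.8, chr9:54863789-54912530, + strand), the sensor that is degraded when iron is plentiful, had 21.8, 22.6 and 21.2 TPM, with an adjusted p of 0.23 and a ratio of 1.06. Aco1 exceeded Ireb2 in TPM in all 3 libraries, by 1.42, 1.30 and 1.53 times. Fbxl5, the F-box protein that targets the Ireb2 product for degradation, was above both at 64.0 ± 3.79 TPM.

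Of the 9 members tested, the exporter had the widest range. Slc40a1 (ENSMUSG00000025993.10, chr1:45908068-45926523, - strand), which encodes ferroportin, had 16.0 and 15.9 TPM in replicates 1 and 3, and 7.16 TPM in replicate 2. Its estimated counts were 572, 319 and 464 in replicates 1, 2 and 3, or 27.5, 15.0 and 25.1 CPM, a ratio of 1.83 between replicates 1 and 2 (adjusted p = 3.72e-17). Replicates 1 and 3 were close together and without replicate 2 the adjusted p was 0.287. It was the 1 member of 9 also called in the second gene table, where 23.2% of genes were, with 50, 28.4 and 46.5 CPM and an adjusted p of 6.89e-08. With edgeR's common spread added, the adjusted p was 0.0949. Tfrc over Slc40a1 was accordingly 2.18 and 1.81 in replicates 1 and 3 and 4.58 in replicate 2, in TPM.

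Hmox1 (ENSMUSG00000005413.8, chr8:75093621-75100589, + strand), the inducible enzyme that opens the haem ring and frees its iron, was lowest in the same library. It had 18.6, 13.8 and 20.8 TPM from 374, 291 and 370 estimated counts in replicates 1, 2 and 3, and a CPM ratio of 1.46 (adjusted p = 3.03e-05). Without replicate 2 the adjusted p of the chi-square test was 0.303, and in the second gene table, with 186, 183 and 200 counts, it was 0.343. Scaled to the size of that table these were 29.6, 29.5 and 34.8 CPM, so replicates 1 and 2 were close there.

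In estimated counts, macrophage markers moved with these genes. Of the 13 on the list, 12 were lowest in replicate 2. The exception, Cd163, was lowest in replicate 1 (1.15, 1.27 and 1.84 CPM). Of the 11 tested, 9 differed and were lowest in replicate 2, as were 16.4% of all genes tested. The summed level of the 13 markers in replicates 1, 2 and 3 was 126, 83.5 and 135 CPM. That is 0.662 and 1.07 times replicate 1 in replicates 2 and 3. Slc40a1 stood at 0.547 and 0.911 times, and Hmox1 at 0.763 and 1.11 times, replicate 1 in the same libraries. Among the markers, Vcam1 had 33.5, 22.8 and 38.8 CPM and Csf1r, the receptor on which most macrophages depend, 24.2, 15.2 and 25.6 CPM. Spic, the transcription factor of iron-recycling macrophages of the spleen, had 2.69, 2.17 and 3.89 CPM. The 1 marker at 0 in a library was Marco, with 4, 0 and 2 estimated counts in replicates 1, 2 and 3, too few to be tested. The part of the macrophage markers in the level of Slc40a1 and Hmox1 was not tested. Erythroid markers went the other way, with all 9 highest in replicate 2 and a sum of 320.3, 462 and 402 CPM in replicates 1, 2 and 3.

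**Figure D2:**
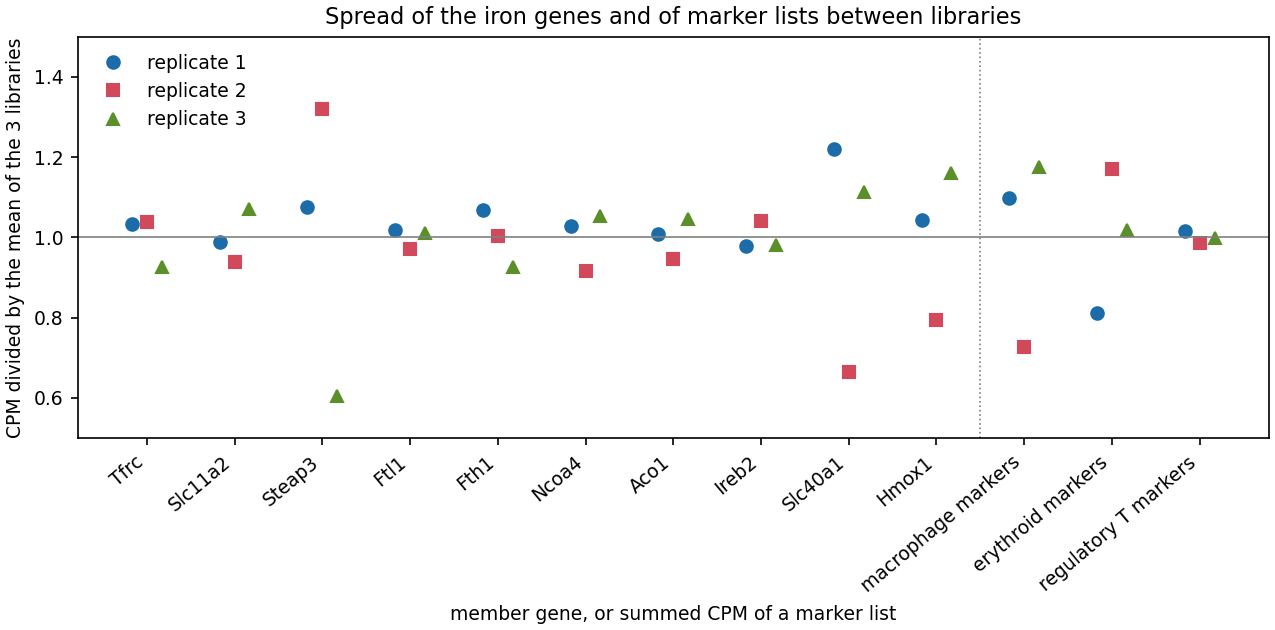
CPM of each member, and summed CPM of 3 marker lists, divided by its mean over the 3 libraries (circles replicate 1, squares replicate 2, triangles replicate 3). Replicate 2 is lowest for 6 members, Slc40a1 and Hmox1 among them, and for the macrophage markers, and highest for the erythroid markers. It is also lowest, by a small margin, for the regulatory T markers (4553, 4419 and 4477 CPM in replicates 1, 2 and 3). Of those 6 markers, 3 were lowest in replicate 2 (Trac, Cd4 and Cd3e) and 3 in replicate 3. Trac had 1538, 1409 and 1575 CPM, whereas Il2ra, highest in replicate 2, had 799, 845 and 652 CPM. The spread of Steap3 rests on 22 counts.

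Transcripts with an iron-responsive element, those with retained introns included, made up most of the TPM of Fth1, Ftl1, Slc40a1 and Tfrc but little of that of Slc11a2. Transcripts with an element held 85.1, 88.5 and 90.7% of the TPM of Fth1 in replicates 1, 2 and 3, and 77.1, 73.5 and 72.4% of that of Ftl1. For Slc40a1 the shares were 80.0, 96.5 and 72.2%. In replicates 1 and 3 most of the remainder lay in a short processed transcript, Slc40a1-207 of 263 bases, which had 7.14, 0 and 7.11 estimated counts, so that a few reads on a short length set the share. Transcripts with the element held 98.0, 99.5 and 96.8% of the estimated counts of Slc40a1.

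For Tfrc, 64.4, 69.3 and 71.6% of TPM, or 88.6, 89.7 and 92.3% of estimated counts, came from transcripts with all 4 matched elements. Tfrc-201, with 4890 bases, held 50.5, 49.1 and 59.7% of TPM and is the 1 protein-coding model with the elements. Tfrc-204, annotated as a retained intron, held 13.9, 20.2 and 11.9%. Tfrc-202, a protein-coding model of 1860 bases without them, held 16.5, 15.1 and 10.4%. Estimates for overlapping transcripts are uncertain: the deposited posterior SD of the Tfrc-201 count was 95.1, 65.1 and 59.5 counts in replicates 1, 2 and 3.

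Slc11a2 is annotated with alternative 3′ ends, of which only that of Slc11a2-205 carries the element. Slc11a2-201, without it, held 67.1, 76.1 and 75.7% of the gene's TPM. Slc11a2-205 held 4.79, 9.63 and 5.62%. Slc11a2-204, a model of 393 bases annotated as a target of nonsense-mediated decay, took 27.0, 4.75 and 7.96% of TPM but only 48.1, 6.86 and 12.2 estimated counts. Between the 2 full-length models, of 4415 and 3025 bases, the form with the element held 6.66, 11.2 and 6.92% of their TPM, a mean of 8.27 ± 2.57%. In estimated counts it had 109 of 1145, 177 of 1128 and 109 of 1111, or 9.52% (95% Wilson interval 7.95 to 11.4), 15.7% (13.7 to 17.9) and 9.81% (8.20 to 11.7). Replicate 2 was highest, and its interval did not overlap the other two. These intervals cover counting error only and leave out the error of dividing reads between transcripts.

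**Figure D3:**
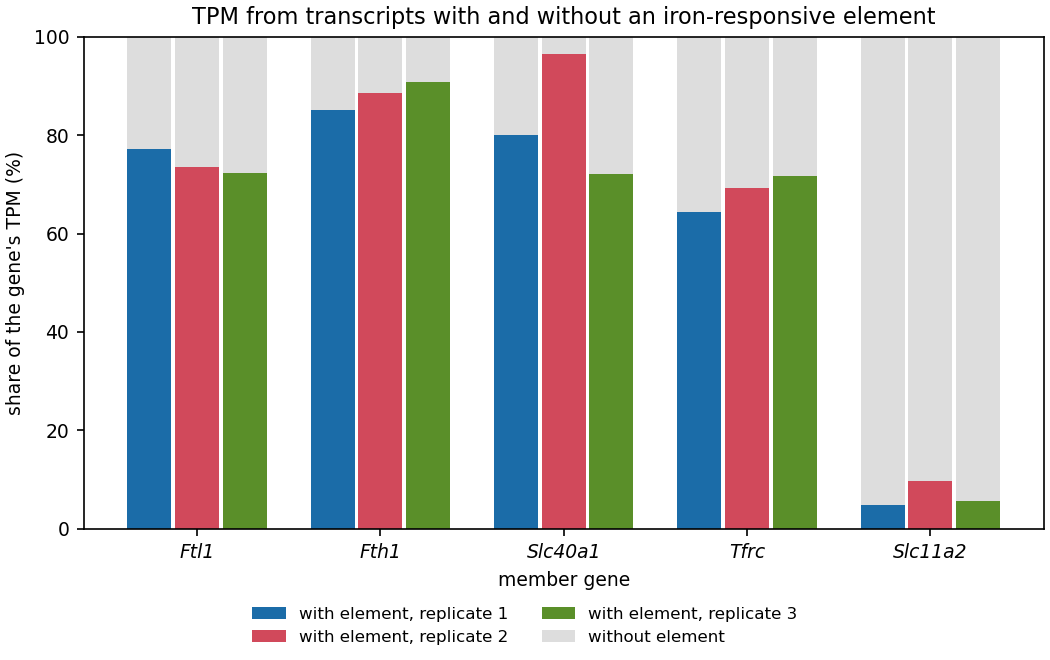
Share of each gene's TPM (%) that came from transcripts with an iron-responsive element (coloured, 1 bar per library) and without one (grey). The element was on 64.4% or more of TPM in every library for Ftl1, Fth1, Slc40a1 and Tfrc, and on 4.79 to 9.63% for Slc11a2.

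The wider machinery of iron and haem was described from 68 further genes in 6 roles. Of these, 51 reached 1 TPM in every library, or 75.0%, against the 47.3% of protein-coding genes given above, and their median of mean TPM was 18.2 against 0.81 for all protein-coding genes. Between libraries 27 of the 57 tested differed, near the background of 44.9%.

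The roles inside the cell were covered most fully. All 25 genes of mitochondrial iron and iron-sulphur cluster assembly were detected, from Iba57 at 1.63 ± 0.376 TPM to Ciao2b, which delivers clusters to cytosolic proteins, at 121 ± 5.42 TPM. Isca2 and Nfu1, late-acting cluster assembly factors of mitochondria, averaged 92.9 ± 7.58 and 92.6 ± 11.2 TPM. All 9 genes of haem synthesis were detected. Urod led at 86.3 ± 5.15 TPM, ahead of Ppox at 57.6 ± 0.775 and Alad at 57.2 ± 5.14 TPM. The lowest was Alas2, the erythroid form of the first enzyme, at 4.54, 9.15 and 6.72 TPM in replicates 1, 2 and 3, which is highest where the erythroid markers, of which it is 1, were highest; their part in its level was not tested. In haem handling 6 of 8 were detected. Hmox2, the constitutive haem oxygenase, was at 85.9 ± 0.415 TPM and above Hmox1 in every library, Blvra, a biliverdin reductase, was at 73.9 ± 3.91 and Slc48a1, a haem transporter, at 37.2 ± 7.05 TPM. Hebp1 was lowest at 0.430 ± 0.226 TPM. Of the storage and chaperone genes, Pcbp2 (102 ± 8.14 TPM) and Pcbp1 (41.5 ± 5.60 TPM), which deliver iron to ferritin, were detected and mitochondrial ferritin Ftmt, at 0.0200 TPM, was not.

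In sensing and systemic control 5 of 11 genes, or 45.5%, reached 1 TPM in every library, near the 47.3% of protein-coding genes, with Fbxl5 first, Keap1 at 36.7 ± 6.93 TPM and Nfe2l2, the oxidative stress factor that drives ferritin and Hmox1, at 33.7 ± 2.31 TPM. The haemojuvelin gene Hfe2 had no count. Of the other uptake and membrane genes 4 of 12, or 33.3%, were detected. They were led by Mcoln1, a lysosomal cation channel that passes iron, at 27.6 ± 5.31 TPM and by Slc39a14, a transporter of zinc and free iron, at 15.9 ± 2.08 TPM. Next was Trf, transferrin itself, whose 11.4, 7.26 and 17 TPM were lowest in replicate 2, as were the macrophage markers; their part in its level was not tested. Steap1 was lowest, with no count. Among the 68, the element search with G-U pairs allowed matched 3 genes, Alas2, Bola3 and Keap1. Of these, Alas2 is known to carry an iron-responsive element. With G-U pairs not allowed 1 of 68 matched, Keap1. With 1 position of the stem allowed to stay unpaired, as Slc11a2 needed, 12 of 68 matched, and 3620 annotated genes in all. A gene without a match may still hold an element that differs from the pattern.

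**Figure D4:**
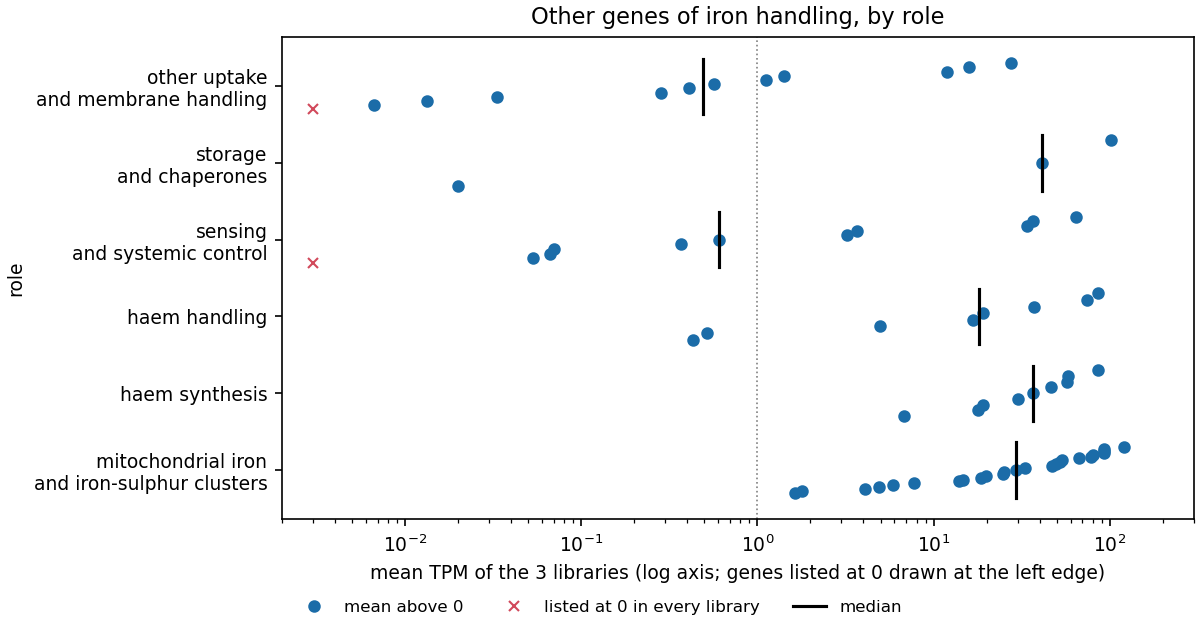
Mean TPM over the 3 libraries (log axis) of 68 further genes of iron and haem handling, 1 row of points per role, with a black line at the median, a dotted line at 1 TPM and a cross for genes listed at 0 in every library. Haem synthesis and iron-sulphur cluster genes all lie above 1 TPM, while the medians of other uptake genes and of systemic control are 0.488 and 0.607 TPM.

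The second gene table gave a different account of storage. It holds whole-number counts, 30.3, 29.3 and 31.1% as many as the estimated counts in replicates 1, 2 and 3. Of the 7 members outside the storage role, 6 had between 44.3 and 70.1% of their estimated counts there, and Steap3, with 6, 1 and 3 counts, 75, 10 and 75%. Fth1 had 1104, 1097 and 1077 counts, 6.03% of its estimated counts on average, Ftl1 297, 302 and 291 (1.45%) and Ncoa4 110, 114 and 107 (3.24%). In counts the ratio of light to heavy ferritin was 0.272 in that table. Ftl1 and Ncoa4 share many stretches with other genes and Fth1 few, as given above. Fth1 had 5.22 estimated counts per exon base, Ftl1 15.3 and Ncoa4 0.364. Among the 22025 genes in both tables with 300 or more exon bases, the highest value in the second table was 1.91 counts per exon base, whereas 457 genes passed 2 in the estimated counts. For the 141 genes with 5 or more estimated counts per exon base the median share was 5.06%, and for the 4366 genes between 0.1 and 0.5 it was 50.8%. How the second table was counted, and whether repeated or shared reads were dropped, is not stated, and its part in these shares was not tested.

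**Figure D5:**
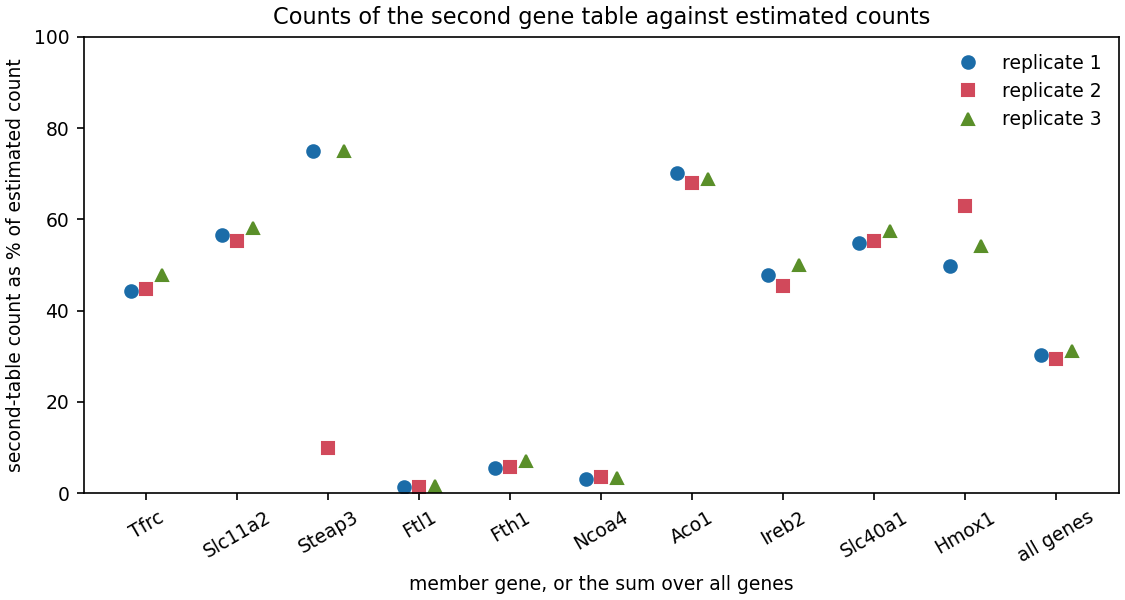
Count in the second gene table as a percentage of the estimated count, for each member and for all genes summed, by library (circles replicate 1, squares replicate 2, triangles replicate 3). Ftl1, Fth1 and Ncoa4 lie at or below 7.01% in every library, against about 30% for all genes; the values of Steap3 rest on 6, 1 and 3 counts.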

How the data were processed

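Polyadenylated RNA was measured in 3 libraries of 1 biosample. Per the labels, RNA was fragmented by shearing; not given in the sources used here were strand handling, aligner and quantification software. The authors deposited, per library, gene and transcript tables on mm10 with GENCODE M21, with estimated counts (expected counts), TPM, FPKM and, per transcript, the percent of the gene's abundance. A second deposited gene table holds whole-number counts on GENCODE M4. Totals of estimated counts over genes were 20783676 (replicate 1), 21206219 (replicate 2) and 18496690 (replicate 3). Rows naming no gene (0.231, 0.271 and 0.189% of counts) were left out.

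Levels are deposited TPM. CPM are estimated counts, rounded to whole numbers and scaled to library size. Libraries were compared by a Pearson chi-square test with 2 degrees of freedom. On counts simulated with counting noise alone over 14641 genes, it recovered 80, 98, 100 and 100% of genes changed 1.25, 1.5, 2 and 3-fold. Those changed genes, 50 per fold, were drawn from genes averaging at least 100 counts, so recovery at lower counts was not measured. Of unchanged genes it called 0.0692%. Elements and shared 50-base stretches were searched in the GENCODE M21 transcripts, whose lengths all equal the deposited ones. Named genes were all members, the 3 highest and the lowest of each role of the wider list, and, of the ferritin copies found by symbol, the 3 with most counts; others, such as Gm15590, were named after their values were seen. Members and lists were chosen with earlier results of these data known. Ahsp, an erythroid marker, could not be matched; Hjv and Fam96b were matched as Hfe2 and Ciao2b. Software was Python 3.11.15 with scipy 1.17.1 and statsmodels 0.14.6, and R 4.3.3 with DESeq2 1.42.0 and edgeR 4.0.16.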

Additional observations from a re-analysis of the deposited data

How the results depend on the processing

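The number of members that differed between libraries was 7 to 8 under TMM and DESeq2 scaling, 3 other count minimums and the deviance statistic. It was 1 in the second gene table (Slc40a1), 0 with edgeR's common dispersion added, and 2 to 8 with 1 library left out; the 2, without replicate 2, were Tfrc and Fth1. In the second table the log2 ratio of the originally highest to lowest library turned to -0.0945 for Fth1 and -0.0424 for Ftl1 (adjusted p = 0.428 and 0.818). As ratios of counts, not divided by length, Ftl1 over Fth1 was 0.272 in the second table and 1.14 in estimated counts, and Ncoa4 over Fth1 0.101 and 0.19, so that in like units both were lower in the second table; the cause was not tested. Steap3 over Tfrc was 0.00517 and 0.00498. In TPM it was 0.00848, from which the ratio of estimated counts differs only by length. Counts set against counts, the ratio in the second table was thus close to that in estimated counts, though it rests on 6, 1 and 3 counts of Steap3. Aco1 over Ireb2 was 1.35 in the second table and 0.934 in estimated counts, so in like units the order of the pair differed. The cause was not tested. Ratios of estimated counts were added after seeing the data. Slc11a2-201 held 85.1% of the gene's estimated counts, 87.0% of TPM among protein-coding transcripts and 72.9% of all TPM. The transcript with the element held 11.7% of estimated counts of the full-length pair, where longer transcripts weigh more, and 8.27% of TPM; this pair was chosen after seeing the data. Tfrc over Slc40a1 moved by less than the spread between libraries or under 1.5 times. So did Aco1 over Ireb2 in FPKM and with 1 library left out. The same held for the 4 members with an element and the 51 detected genes of the wider list (42 detected at 5 TPM). No paired analysis was possible because there is 1 group. Estimated counts of Steap3 (22 in all) limit what can be said of it.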
